A study of Mus musculus with 24 samples.

Results

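The genes described here are 10 known genes of radial glia and neural progenitors, followed across the embryonic brain of mice with and without *Tfap2b*. They are *Sox1*, *Sox2*, *Nes*, *Hes1*, *Hes5*, *Pax6*, *Nr2e1*, *Vim*, *Fabp7* and *Hmga2*, of 54446 genes counted, and none of the 10 was lost to the low-count filter in any comparison. They were chosen by name as known progenitor genes, and *Sox1*, *Nr2e1* and *Hmga2* belong to them because the study listed them among the genes that rose in female mutant DMH. The genotype difference in female DMH and the *Hox* content of DMH pieces therefore had a part in the choice and are described without a test. RNA was sequenced from 24 libraries, 1 from the secondary prosencephalon (SP, the future telencephalon and hypothalamus) and 1 from the diencephalon, midbrain and hindbrain (DMH) of each of 12 embryos at E14.5, a stage of embryonic life counted in days after mating. Groups were *Tfap2b*+/+ (control) and *Tfap2b*-/- (mutant) embryos of each sex, with 3 embryos for each sex and genotype. The mutant allele carries a neomycin resistance cassette in an exon of *Tfap2b* in every cell of the embryo, and the parents were heterozygous, so controls are wild-type offspring of the same kind of cross. Female mutant 3 was left out of the comparisons of genotypes in females and of regions in mutants. The study excluded it from its genotype comparisons.

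Radial glia are the stem cells of the developing brain. Their cell bodies line the ventricle, they divide there, and they give rise to neurons directly or through intermediate progenitors. SOXB1 factors and Notch signalling keep them undifferentiated: Notch ligands on a neighbouring cell activate the receptor, whose cleaved domain acts with RBPJ to switch on *Hes* genes, and HES proteins repress genes that drive neurons to form. TFAP2B, also called AP-2 beta, is a transcription factor of midbrain and hindbrain neurons that binds GC-rich palindromes.

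Promoters are shown for 2 members, *Hes5* because it holds the site of the Notch factor as well as that of AP-2, and *Pax6* because the window of its first start site holds an AP-2 match. The sequences are those of RefSeq (GRCm38.p6), each the 250 bases before an annotated start, 5′ to 3′. Both genes lie on the plus strand, and capitals mark a match to GCCNNNGGC (AP-2, a pattern whose reverse complement is the same pattern, so 1 search covers both strands) or to GTGGGAA or its reverse complement TTCCCAC (RBPJ).
*Hes5*, chr4:154960673-154960922: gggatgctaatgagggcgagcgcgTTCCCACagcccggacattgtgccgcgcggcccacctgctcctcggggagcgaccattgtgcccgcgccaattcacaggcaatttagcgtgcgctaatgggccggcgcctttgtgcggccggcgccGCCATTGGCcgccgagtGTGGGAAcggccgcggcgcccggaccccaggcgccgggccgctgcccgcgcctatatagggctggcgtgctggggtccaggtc
*Pax6*, chr2:105668646-105668895: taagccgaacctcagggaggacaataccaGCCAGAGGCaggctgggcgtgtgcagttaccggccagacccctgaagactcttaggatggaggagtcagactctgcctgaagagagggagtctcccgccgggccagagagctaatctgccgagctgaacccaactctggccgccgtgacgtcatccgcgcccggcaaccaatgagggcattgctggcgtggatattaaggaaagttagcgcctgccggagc
In *Hes5* the RBPJ matches began 226 and 83 bases before the start and the AP-2 match 100 bases before it. The AP-2 match of *Pax6* began 221 bases before its start. *Vim* held the third AP-2 match, 20 bases before its start. Windows of 300 bases, which add 50 bases after the start, were given for 9 of the 10 members, *Pax6* with 2 of them, and 3 of these 10 windows held the AP-2 letters, against 16.59% of 32851 windows of all genes. The RBPJ letters were in the window of *Hes5* alone, against 6.383% of all windows, and 0.2557% of all windows held 2 or more matches. The matches describe letters in these windows and are no evidence of binding.

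Gene counts per library ran from 24.7 to 66.8 M fragments (median 32.1 M), and levels are given as counts per M (CPM) scaled over the 24 libraries. The mutated gene followed the labels in DMH. *Tfap2b* was at 281 to 435 CPM in the 6 control DMH libraries and at 50.4 to 56.6 CPM in the 6 mutant ones, while SP libraries of both genotypes held 2.75 to 4.72 CPM. Genes of the telencephalon summed to 1934 to 3314 CPM in SP and 204 to 308 CPM in DMH, and genes of midbrain and rostral hindbrain to 1.01 to 5.75 CPM in SP and 231 to 329 CPM in DMH. Caudal *Hox* genes, 15 genes active in caudal hindbrain and spinal cord, were nearly absent from 4 of the 12 DMH libraries (female control 1, female mutants 1 and 2, male mutant 2). Female mutant 3 held 648 CPM of 7 skeletal muscle genes in DMH, against 5.75 to 8.25 CPM in the other DMH libraries. Both libraries of female control 2 held Y-linked transcripts at 122 and 133 CPM, as male libraries did, against at most 0.0351 CPM in the 10 other libraries labelled female.

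The members spanned a wide range of abundance. Per kilobase of exon, *Fabp7*, a fatty acid binding protein of radial glia, was highest in control SP at 303 ± 17.3 CPM per kb (SD, n = 6). It was followed by *Vim*, the intermediate filament vimentin, at 161 ± 27.9 CPM per kb, and by the pluripotency and progenitor factor *Sox2* at 88.1 ± 10.6 CPM per kb. The order then ran through *Nes*, *Sox1*, *Nr2e1*, *Hes5*, *Hes1* and *Pax6* to *Hmga2* at 4.16 ± 1.49 CPM per kb. Ranges of neighbours in this order overlapped from *Sox2* to *Nes* and from *Sox1* through *Nr2e1*, *Hes5* and *Hes1* to *Pax6*. In control DMH *Fabp7* was again highest at 348 ± 20.5 CPM per kb and *Hmga2* lowest at 1.79 ± 0.324 CPM per kb. *Nr2e1* stood sixth in SP at 28.6 ± 4.30 CPM per kb and ninth in DMH at 3.74 ± 1.40 CPM per kb. *Fabp7* made up 41.5% of the summed level per kilobase of the 10 genes in control SP and 57.2% in control DMH.

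**Figure D1:**
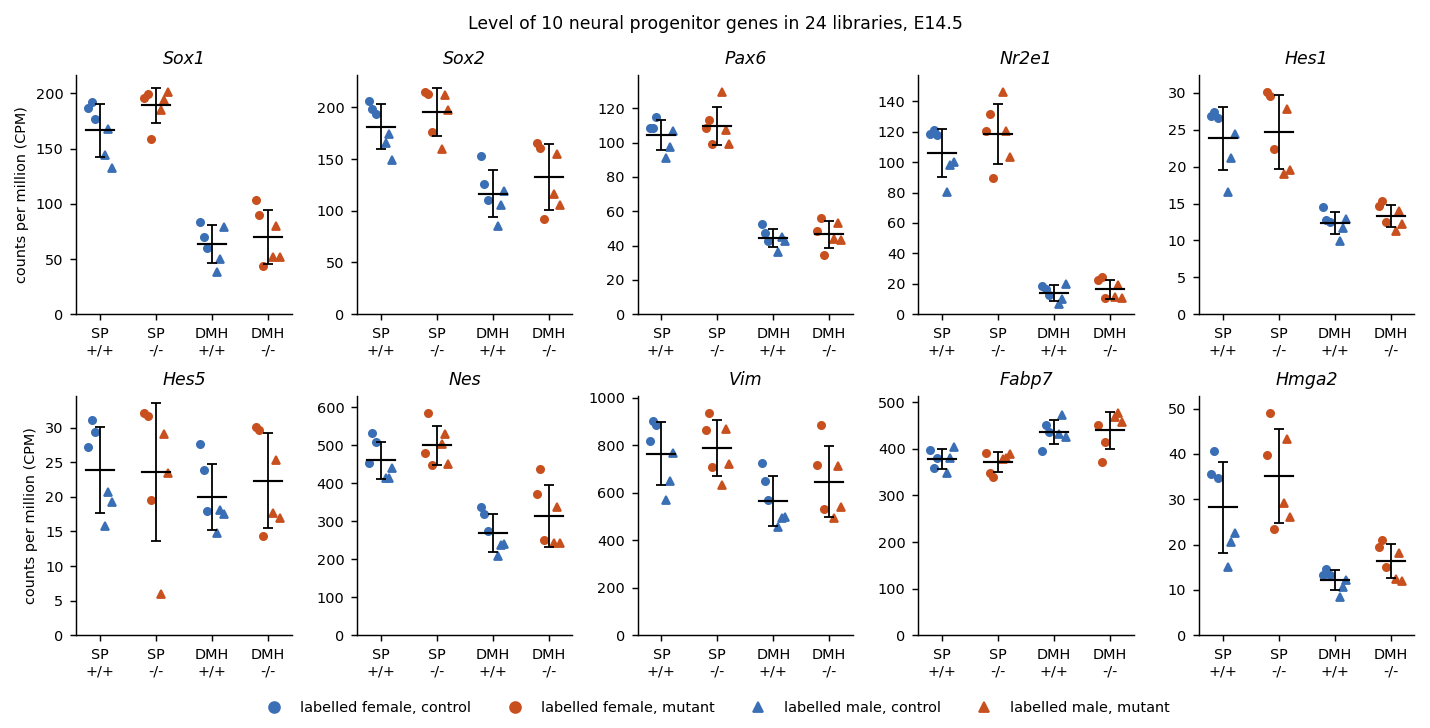
Level of each gene in CPM (vertical axes, from 0, a different scale for each gene) in the 24 libraries by region and genotype (+/+ control, -/- mutant). Points are libraries, circles labelled female and triangles labelled male, and bars give the mean and SD of 6 libraries. *Nr2e1* was at 80.6 to 146 CPM in SP and at 6.46 to 24.3 CPM in DMH, while *Fabp7* was the gene with the higher median in DMH.

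SP and DMH of the same embryos were compared in each genotype, in a fit with labelled sex but no term for the embryo. A fit with the embryo as a block was run as an alternative. In controls 7 of the 10 members were lower in DMH than in SP past the thresholds of the study (edgeR quasi-likelihood test, adjusted p under 0.2 and a change of over 0.5 in either direction on the log2 scale), where 14.49% of 16618 genes were lower, 20.5% were higher and 35% differed in either direction. The same number, 7, was lower in the 5 mutant embryos, where 15.69% of 16481 genes were lower and 35.6% differed. The median log2 fold change of the members was -0.87 in controls and -0.82 in mutants, beside medians of -0.0042 and -0.011 over all genes. In bulk tissue a smaller share of progenitor cells and less RNA per progenitor cannot be told apart.

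Among the transcription factors, *Nr2e1* differed most. This gene encodes the orphan nuclear receptor TLX, which maintains forebrain neural stem cells. Its level in the 6 control SP libraries was 80.6 CPM at the lowest, 109 CPM at the median and 121 CPM at the highest, and in the 6 control DMH libraries 6.46, 14.4 and 19.8 CPM. The regions did not overlap, and the log2 fold change of DMH over SP was -2.93 ± 0.23 (SE, edgeR adjusted p = 7.6e-07), a level 7.61-fold lower. In the mutants it was -2.93 ± 0.21 (edgeR adjusted p = 8.7e-07).

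*Sox1*, a SOXB1 factor of neural progenitors, was at 132, 172 and 192 CPM (lowest, median and highest) in control SP and at 38.2, 65.0 and 83.1 CPM in control DMH. Again no DMH library reached the lowest SP library. The log2 fold change was -1.40 ± 0.16 in controls (edgeR adjusted p = 1.1e-05) and -1.46 ± 0.15 in mutants (edgeR adjusted p = 1.6e-05).

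*Pax6*, a patterning factor of dorsal forebrain and of other progenitor domains, was next. It was at 91.3, 108 and 115 CPM in control SP and at 36.0, 44.0 and 52.4 CPM in control DMH, a log2 fold change of -1.25 ± 0.062 (edgeR adjusted p = 2.8e-10). In mutants the difference was -1.24 ± 0.11 (edgeR adjusted p = 3.0e-06).

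*Sox2*, the second SOXB1 factor of the list, differed less. It was at 149, 184 and 206 CPM in control SP and at 85.1, 115 and 153 CPM in control DMH, so the groups overlapped by 1 library on each side. The log2 fold change was -0.65 ± 0.086 (edgeR adjusted p = 1.3e-05). In mutants it was -0.55 ± 0.11 (edgeR adjusted p = 0.0014), and without male mutant 3 it was -0.44, short of the fold threshold.

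The Notch targets of the list did not move alike. *Hes1*, a repressor of proneural genes, was at 16.5, 25.5 and 27.5 CPM in control SP and at 9.87, 12.6 and 14.47 CPM in control DMH, with no overlap. Its log2 fold change was -0.95 ± 0.092 in controls (edgeR adjusted p = 2.5e-07) and -0.93 ± 0.11 in mutants (edgeR adjusted p = 3.4e-05).

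*Hes5*, the more strictly Notch-dependent of both repressors, was at 15.8, 24.0 and 31.0 CPM in control SP and at 14.8, 18.01 and 27.6 CPM in control DMH, so the regions overlapped broadly. The log2 fold change was -0.25 ± 0.10 in controls (edgeR adjusted p = 0.042), under the fold threshold. In mutants it was -0.055 ± 0.30 (95% interval -0.71 to 0.60, edgeR adjusted p = 0.893). The SP library of male mutant 1 held *Hes5* at 5.91 CPM, where the other 11 SP libraries held 15.8 to 32.0 CPM. A stretch of 433 exon bases of *Hes5* (31.8%) is shared with the antisense gene *Gm20421*, which the stranded counts used here keep apart.

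Of the structural genes, *Nes*, the intermediate filament nestin, was at 413, 447 and 531 CPM in control SP and at 208, 257 and 336 CPM in control DMH. The groups did not overlap and the log2 fold change was -0.79 ± 0.064 (edgeR adjusted p = 3.4e-08). In mutants it was -0.71 ± 0.13 (edgeR adjusted p = 0.0011).

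*Vim* was at 569, 793 and 902 CPM in control SP and at 457, 534 and 727 CPM in control DMH. The log2 fold change was -0.45 ± 0.072 in controls and -0.32 ± 0.12 in mutants, with edgeR adjusted p of 5.4e-05 and 0.047, and missed the fold threshold in both. Without female control 1 it was -0.51 in controls and passed.

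*Fabp7* was the one member with more transcript in DMH. It was at 349, 381 and 404 CPM in control SP and at 395, 434 and 471 CPM in control DMH, and was higher in DMH in 11 of 12 embryos. DMH over SP was 0.19 ± 0.049 on the log2 scale in controls (edgeR adjusted p = 0.0028) and 0.19 ± 0.072 in mutants (edgeR adjusted p = 0.046), below the fold threshold.

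*Hmga2*, a chromatin protein of young stem cells that is repressed by let-7 microRNAs as development proceeds, was at 15.1, 28.6 and 40.6 CPM in control SP and at 8.52, 12.8 and 14.6 CPM in control DMH. The lowest SP library stood just above the highest DMH library. The log2 fold change was -1.17 ± 0.13 in controls (edgeR adjusted p = 3.6e-06) and -1.22 ± 0.15 in mutants (edgeR adjusted p = 6.0e-05).

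**Figure D2:**
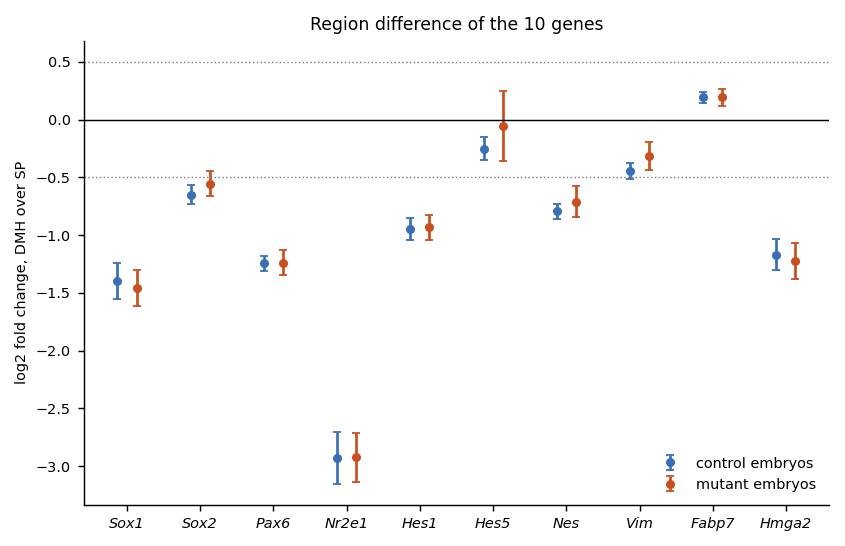
Log2 fold change of DMH over SP for each gene (vertical axis) with its SE, in 6 control embryos and in 5 mutant embryos. Dotted lines mark the fold threshold of 0.5 in either direction. In this plot 7 genes lie below -0.5 in both genotypes, *Vim* and *Hes5* between it and 0, and *Fabp7* at 0.19 in both.

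Within embryos, 8 of the members were lower in DMH than in SP in 12 of 12 embryos. No share of all genes is given for this count, and 35% of all genes differed between the regions in controls. The within-embryo level in DMH had a median of 12.8% of that in SP for *Nr2e1*, 35.2% for *Sox1*, 43.6% for *Pax6*, 44.2% for *Hmga2*, 53.2% for *Hes1*, 56.4% for *Nes*, 67.8% for *Sox2* and 77.0% for *Vim*. For 4 members (*Sox1*, *Hes1*, *Pax6* and *Nr2e1*) all 12 DMH libraries lay below all 12 SP libraries, which held for 10.7% of 18089 genes. *Hes5* was lower in DMH in 10 embryos, and male mutant 1 stood apart with a log2 ratio of 1.58.

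Other genes of these cells were compared between the regions as well, where 35% of all genes were called. Of 17 further radial glia genes, 7 fell and 2 rose in control DMH against SP (edgeR), with a median log2 fold change of -0.38. *Gli3*, the repressor arm of Hedgehog signalling, fell by 1.58 and *Lhx2*, a forebrain selector gene, by 1.67 on the log2 scale, whereas *Ednrb*, an endothelin receptor of radial glia, was 1.03 higher. Of 20 genes of the Notch pathway 6 fell and 1 rose, where 14.49% of all genes fell and 20.5% rose, and the list was not tested against them. Among its ligands *Dll1* fell by 0.99 and *Jag2* was 1.00 higher on the log2 scale, and the receptors *Notch1* and *Notch2* both fell by 0.93.

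Of 14 cell cycle genes 13 fell in control DMH, with a median log2 fold change of -1.79. *Ccnd2*, a cyclin of cycling radial glia, fell by 2.29 on the log2 scale. All 7 genes of intermediate progenitors fell, led by *Eomes*, which marks those of the forebrain, at -5.11 ± 0.16 (SE). Of 12 neuronal genes 7 rose and 0 fell, with a median of 0.74. Of 7 genes of the Lin28 and let-7 axis, which controls *Hmga2*, 3 rose and 3 fell. *Lin28a* and *Lin28b*, which block let-7 maturation, were 3.03 and 1.27 higher on the log2 scale in DMH, while *Igf2bp1* and *Igf2bp2*, RNA-binding proteins and let-7 targets, fell by 0.99 and 1.06.

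Control libraries also differed by labelled sex, a contrast noticed in the data and given without a test. In 9 of the 10 members (not in *Fabp7*) the 3 SP controls labelled female lay above the 3 labelled male, a pattern seen in 18.1% of 18089 genes. *Hmga2* was at 34.7 to 40.6 CPM in the former and at 15.1 to 22.6 CPM in the latter, and *Vim* at 819 to 902 CPM and 569 to 766 CPM. *Pax6* came closest to overlapping, at 108 to 115 CPM and 91.3 to 107 CPM. Without female control 2, which holds Y-linked transcripts, the count was again 9, against 22.4% of genes. In control DMH 3 members (*Nes*, *Vim* and *Hmga2*) showed this pattern, against 16.3% of genes, and again 3 without female control 2, against 19.2%. The labels give no litter or day of dissection to set beside these values.

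The comparison of mutant with control male DMH asked which genes depend on *Tfap2b* in tissue that had no part in the choice of *Sox1*, *Nr2e1* and *Hmga2*. No member passed the thresholds in edgeR, 0 had an unadjusted p under 0.05, and DESeq2 called 0 as well, where edgeR called 4 of 16962 genes, 0.0236%. All 10 log2 fold changes were above 0, as were those of 49.2% of all genes, with a range of 0.047 to 0.39 and a median of 0.18.

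*Hmga2* had the largest value in male DMH. It was at 8.52, 10.7 and 12.3 CPM in controls 1 to 3 and at 12.4, 18.1 and 11.9 CPM in mutants 1 to 3. Mutant 2 was the highest of the 6, and mutant 3 lay within the controls. Mutant over control was 0.39 ± 0.19 on the log2 scale (95% interval -0.045 to 0.83, edgeR adjusted p = 0.87). Such intervals are for 1 gene and are not adjusted for the number of genes.

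*Nr2e1* was at 6.46, 9.78 and 19.8 CPM in male control DMH and at 11.1, 19.2 and 10.7 CPM in mutant DMH. *Sox1* was at 38.2, 50.2 and 79.2 CPM and at 51.5, 79.7 and 51.7 CPM. For both genes control 3 and mutant 2 were high and the groups overlapped throughout, and the 95% intervals of the log2 fold change ran from -1.04 to 1.29 for *Nr2e1* and from -0.71 to 0.89 for *Sox1*. Both values were below 0 without mutant 2, at -0.18 for *Nr2e1* and -0.15 for *Sox1*.

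*Nes* was the only member whose 3 male mutant DMH libraries lay above the 3 controls, at 242, 338 and 244 CPM against 208, 236 and 240 CPM. This pattern was seen in 7.3% of 16962 genes. Its log2 fold change was 0.24 ± 0.13 (95% interval -0.065 to 0.54, edgeR adjusted p = 0.87). Male mutant 2 is the male library with few caudal *Hox* transcripts. Without it the median of the 10 members in male DMH was 0.048 in place of 0.18, and with the caudal *Hox* level as a covariate it was 0.045.

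In SP, where *Tfap2b* itself was at a few CPM, the same comparison was made in males. In male SP, 0 members passed in edgeR or in DESeq2, and edgeR called 0 of 16562 genes, 0% of them, with 605 genes and 3 members at an unadjusted p under 0.05. *Hmga2* was at 15.1, 20.6 and 22.6 CPM in controls and at 29.1, 43.3 and 26.1 CPM in mutants. Each mutant lay above each control. Its log2 fold change was 0.76 ± 0.23 (95% interval 0.22 to 1.30, edgeR adjusted p = 0.967).

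*Sox1* was at 144, 168 and 132 CPM in male control SP and at 185, 194 and 201 CPM in mutant SP, a log2 fold change of 0.39 ± 0.12 (edgeR adjusted p = 0.967). *Nr2e1* was at 80.6, 98.0 and 100.4 CPM and at 146, 120.2 and 103 CPM, a log2 fold change of 0.41 ± 0.16 (edgeR adjusted p = 0.967). *Sox1*, *Nes*, *Nr2e1* and *Hmga2* were the 4 members whose 3 mutants lay above the 3 controls in male SP, against 5.8% of genes.

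No cell cycle gene passed the test. All 14 had log2 fold changes above 0 in male SP, against 43.2% of all genes, with a median of 0.23 and 0 called. Medians were below 0 for genes of choroid plexus (-0.85), pericytes (-0.28), endothelium (-0.23), blood (-0.21) and microglia (-0.20), with 0 called. Those of neuronal (0.065) and skeletal muscle genes (0.36) were above 0. The SP library of male mutant 3 held 144 CPM of 8 genes of meninges and mesenchyme and 42.2 CPM of 7 choroid plexus genes, against 474 to 701 CPM and 209.5 to 556 CPM in the other SP libraries, with none of these genes at 0 in all libraries. Their part in the male SP values was not tested. Without this library *Hmga2* was at 0.93, *Nr2e1* at 0.56 and *Sox1* at 0.40 on the log2 scale in male SP.

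The SP library of male mutant 1 also stood apart. Its chi-square per gene against mutants 2 and 3 was 181 and 149, where the 22 other pairs of libraries within a group reached at most 107, and 9.98% of its fragments were unmapped, the highest share of the 24 libraries. Without it the log2 fold changes in male SP were 0.85 for *Hmga2*, 0.43 for *Sox1*, 0.28 for *Nr2e1* and 0.51 for *Hes5*, the last of which was 0.078 with it. No member passed without it (edgeR adjusted p = 0.496 for each of these 4).

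In female SP, with 3 controls and mutants 1 and 2, 0 members passed in edgeR or DESeq2, where edgeR called 3 of 16615 genes, 0.0181%. Unadjusted p was under 0.05 for 2 members, *Hmga2* and *Hes1*, and for 428 of all genes. *Hmga2* was at 35.6, 40.6 and 34.7 CPM in the controls and at 39.7 and 48.9 CPM in the mutants, so mutant 1 lay within the controls. Its log2 fold change was 0.26 ± 0.098 (95% interval 0.040 to 0.49, edgeR adjusted p = 1.00). It ranged from 0.10 to 0.40 when 1 library was left out, and with female mutant 3, at 23.5 CPM, it was 0.012 and the median of the members -0.029. The other members ranged from -0.046 (*Fabp7*) to 0.14 (*Hes1*).

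With SP of both sexes in 1 fit, which shares its libraries with the separate comparisons, edgeR called 0 of 16409 genes, 0%, with 795 genes and 5 members at an unadjusted p under 0.05. DESeq2 called 23 genes and no member. *Hmga2* had a log2 fold change of 0.54 ± 0.16 (95% interval 0.20 to 0.88) and *Sox1* one of 0.27 ± 0.078 (95% interval 0.096 to 0.44), both with an edgeR adjusted p of 0.925. *Fabp7* stood at 0.00052 ± 0.059. The sexes overlap in genotype for *Hmga2*: the 3 male mutant values (26.1 to 43.3 CPM) cover those of the 3 female controls (34.7 to 40.6 CPM).

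Whether the genotype difference was another in DMH than in SP was tested in male embryos, again with no term for the embryo. The interaction term passed for 0 members in edgeR, with 0 at an unadjusted p under 0.05, and for 0 in DESeq2, where edgeR called 1 of 17531 genes (0.0057%), *Tfap2b* itself. The largest term among the members was that of *Hmga2*, -0.39 ± 0.31 (95% interval -1.08 to 0.29, edgeR adjusted p = 1.00). For *Nr2e1* the 95% interval of the term ran from -1.32 to 0.70, so differences of these sizes could not be detected in 3 embryos a group.

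**Figure D3:**
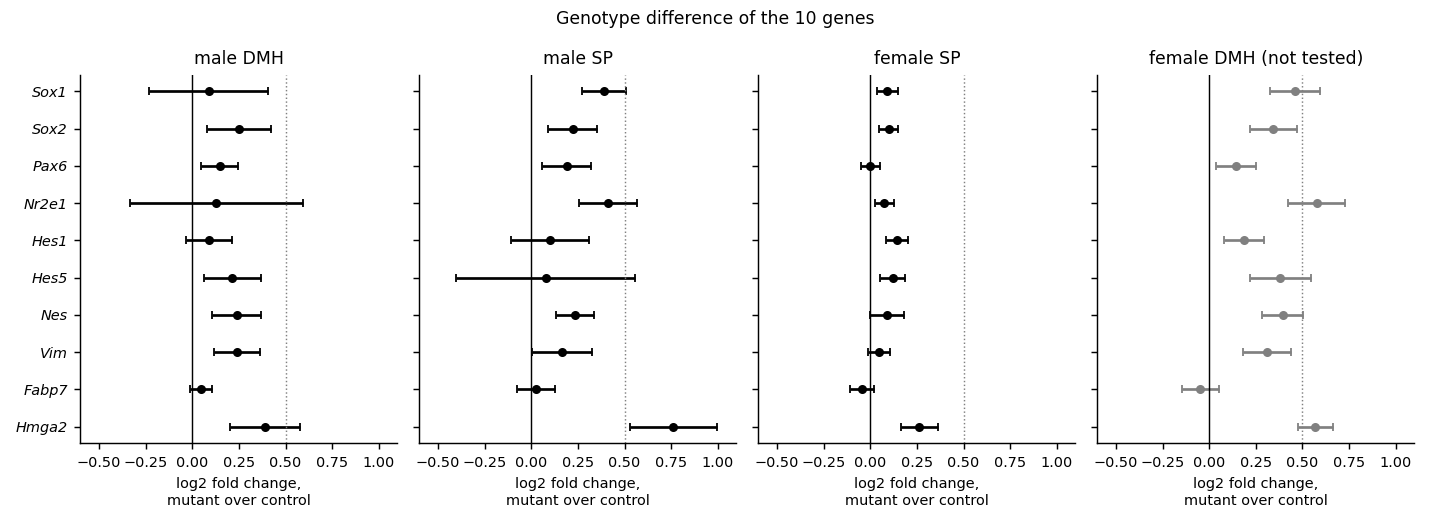
Log2 fold change of mutant over control (horizontal axes) with its SE for each gene in male DMH, male SP, female SP and female DMH. Dotted lines mark 0.5. No gene passed the test in the first 3 panels. *Hmga2* has the largest value in each of these 3, from 0.26 to 0.76, and the values of female DMH (grey), which had a part in the choice of genes, were not tested.

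Female DMH values are a description, since *Sox1*, *Nr2e1* and *Hmga2* were listed from them. With controls 1 to 3 and mutants 1 and 2, *Nr2e1* was at 18.5, 16.3 and 12.5 CPM in controls and at 22.3 and 24.3 CPM in mutants. Its log2 fold change was 0.58 ± 0.15 (SE). *Hmga2* was at 13.3, 14.6 and 13.3 CPM and at 19.5 and 20.95 CPM, a log2 fold change of 0.57 ± 0.094. *Sox1* was at 83.1, 70.1 and 59.9 CPM and at 104 and 90.0 CPM, a log2 fold change of 0.46 ± 0.13. In all 3 genes both mutants lay above all controls, as they did in 4 unlisted members (*Sox2*, *Nes*, *Hes1* and *Hes5*), a pattern seen in 12.1% of 16773 genes. Over all genes, edgeR called 1 of 16773 in female DMH, *Tfap2b* itself and no other gene. That count depended on the libraries used, and was 1117 without female control 1.

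The members that the study did not list ranged from -0.048 for *Fabp7* to 0.39 for *Nes* in female DMH, and 9 of 10 members were above 0, against 49.6% of 16773 genes. Above 0.5 were 2 members, *Nr2e1* and *Hmga2*, against 2.16% of genes. Female mutant 3, left out above, lay below mutants 1 and 2 in DMH: it held *Sox1* at 44.1 CPM, *Nr2e1* at 10.9 CPM and *Hmga2* at 15.005 CPM. With it the median of the 10 members was 0.12 in place of 0.36. That library held 1914 CPM of 6 cartilage genes against 91.7 to 115 CPM in the others, as well as the muscle genes named above, and the part of this tissue in its values was not tested.

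The *Hox* content of the DMH pieces divided these libraries in a way that overlaps with genotype but is not the same. The 15 caudal *Hox* genes are those the study lists under hindbrain patterning, among genes lower in female mutant DMH. In male DMH their median log2 fold change of mutant over control was -0.61, with 0 above 0 and 0 called. In female control 1, female mutants 1 and 2 and male mutant 2 the 15 caudal *Hox* genes summed to 0.0378, 0.942, 0.105 and 15.3 CPM. In the 8 other DMH libraries they summed to 352 to 541 CPM, and in SP to at most 0.171 CPM. Of the 10 members 7 (*Sox1*, *Sox2*, *Nes*, *Hes1*, *Hes5*, *Pax6* and *Vim*) were higher in each of the 4 *Hox*-poor libraries than in any of the 8 others, a pattern seen in 10.4% of 17437 genes, with 20.5% not overlapping in either direction. This split entered the choice of what is described here and is given without a test.

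*Sox2*, *Hes5* and *Nes* are given first. *Hes5* was at 25.3 CPM at the lowest, 28.6 CPM at the median and 30.0 CPM at the highest in the *Hox*-poor libraries and at 14.3, 17.5 and 23.9 CPM in the others. *Sox2* was at 153, 158 and 166 CPM and at 85.1, 108 and 126 CPM. *Nes* was at 336, 355 and 437 CPM and at 208, 243 and 320.3 CPM.

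The remaining genes of this pattern were *Sox1*, *Pax6*, *Vim* and *Hes1*. *Sox1* was at 79.7, 86.5 and 104 CPM and at 38.2, 51.6 and 79.2 CPM, so that male mutant 2 stood just above male control 3. *Pax6* was at 48.2, 52.7 and 55.9 CPM and at 34.4, 43.0 and 47.6 CPM. *Vim* was at 713, 721 and 884 CPM and at 457, 515 and 651 CPM, and *Hes1* at 13.9, 14.54 and 15.3 CPM and at 9.87, 12.4 and 12.8 CPM. The ratio of medians was 1.68 for *Sox1*, 1.63 for *Hes5*, 1.46 for both *Sox2* and *Nes*, 1.40 for *Vim*, 1.23 for *Pax6* and 1.17 for *Hes1*.

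*Nr2e1*, *Hmga2* and *Fabp7* overlapped between *Hox*-poor and other libraries. *Nr2e1* was at 18.5, 20.7 and 24.3 CPM and at 6.46, 11.0 and 19.8 CPM, with male control 3 among the *Hox*-poor values. *Hmga2* was at 13.3, 18.8 and 20.95 CPM and at 8.52, 12.3 and 15.005 CPM. *Fabp7* had the lower median in the *Hox*-poor libraries, 423 against 444 CPM.

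Genotypes can be set side by side within *Hox* content only in few libraries. Among *Hox*-poor libraries *Hmga2* was at 13.3 CPM in the control and at 18.1 to 20.95 CPM in the 3 mutants, whereas *Sox2* was at 153 CPM in the control and at 155 to 166 CPM in the mutants. Among *Hox*-rich male libraries *Sox1* was at 51.5 and 51.7 CPM in mutants 1 and 3, inside the range of 38.2 to 79.2 CPM of the 3 controls. In female DMH, 2 of 2 mutants and 1 of 3 controls were *Hox*-poor, so genotype and *Hox* content cannot be told apart there beyond that 1 control. The *Hox*-rich female mutant was mutant 3, the library left out, with 464 CPM of caudal *Hox* genes. Its *Sox1* (44.1 CPM) and *Nr2e1* (10.9 CPM) lay below the *Hox*-rich female controls, at 59.9 and 70.1 CPM and at 12.5 and 16.3 CPM. Its *Hmga2* (15.005 CPM) lay above theirs, at 13.3 and 14.6 CPM.

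Other gene lists were summed over the same libraries. The 14 cell cycle genes summed to 1503 to 1884 CPM in the *Hox*-poor libraries and to 902 to 1302 CPM in the others, and the 7 genes of intermediate progenitors to 319 to 374 CPM and 132 to 268 CPM. The 17 further radial glia genes summed to 2871 to 2926 CPM and 2534 to 2766 CPM, and the 20 Notch pathway genes to 928 to 989 CPM and 760.4 to 924 CPM. Genes of oligodendrocyte precursors were lower in the *Hox*-poor libraries, with 4 genes summing to 66.2 to 80.5 CPM and 92.1 to 145 CPM. The 4 pericyte genes summed to 181 to 185 CPM and 189 to 210.4 CPM, and genes of meninges and mesenchyme to 722 to 880.1 CPM and 904 to 3361 CPM. Neuronal genes overlapped, at 9518 to 10127 CPM and 9534 to 10662 CPM. Their part in the members' values was not tested.

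The SP libraries of the same embryos were set side by side in the same way. *Sox2* was the one member whose 4 SP libraries from embryos with *Hox*-poor DMH, at 206 to 215 CPM, lay above the 8 others, at 149 to 199 CPM. That pattern was seen in 0.533% of 17437 genes. The other 9 members overlapped. The ratio of medians in SP was above 1 for all 10 members, a count for which no share of all genes is given. For *Hmga2* (1.67 against 1.53) and *Hes1* (1.32 against 1.17) this ratio was larger than in DMH. For *Hes5* it was 1.51 in SP against 1.63 in DMH. The 4 embryos with *Hox*-poor DMH are 3 labelled female and 1 labelled male, and the 8 others 3 and 5, so the split also differs in sex, by which SP controls differed as given above.

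**Figure D4:**
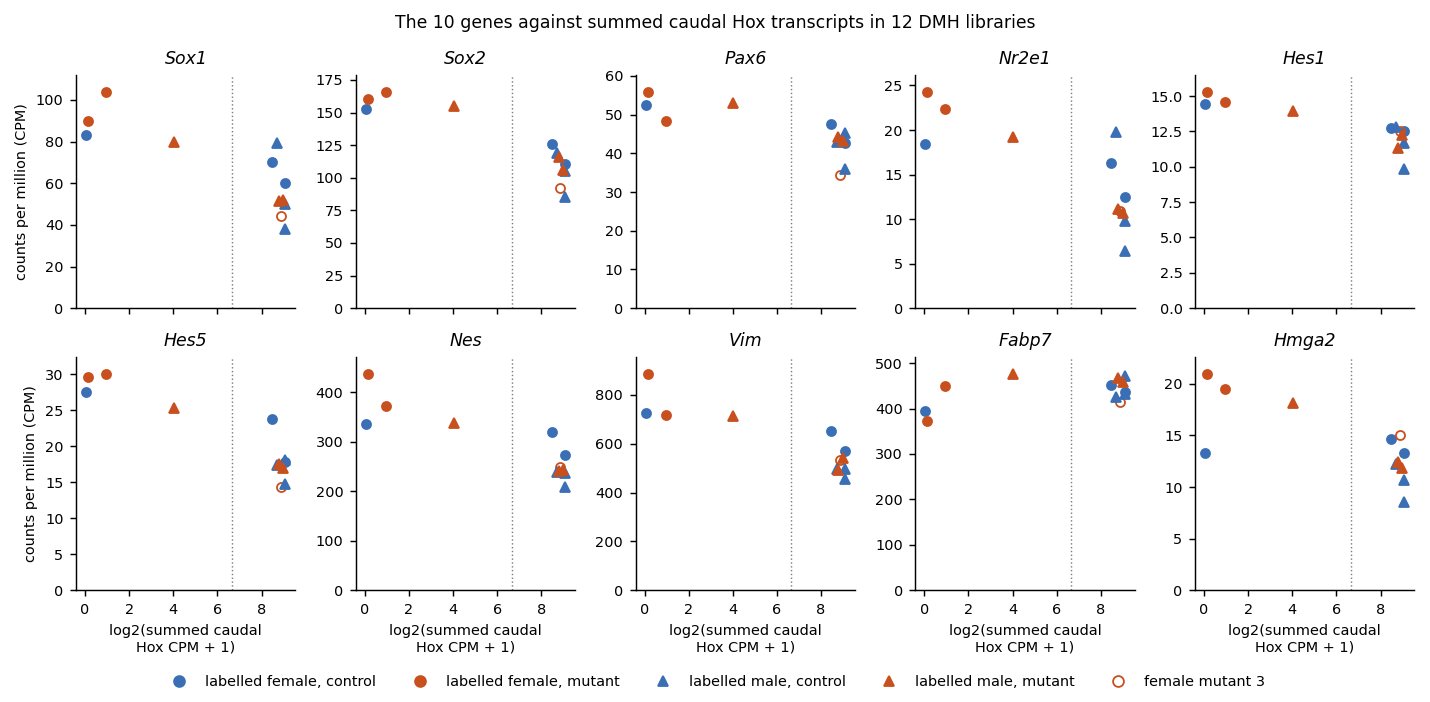
Level of each gene in CPM (vertical axes, from 0) in the 12 DMH libraries against the summed level of 15 caudal *Hox* genes (horizontal axes, log2 of CPM + 1). The dotted line marks 100 CPM, and the open circle is female mutant 3. To its left lie 4 libraries, and in 7 genes all of these lie above the 8 libraries to its right.

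Levels in SP and DMH were also set against each other by embryo. Over the 12 embryos, among them the female DMH libraries that had a part in the choice of genes, correlations of log2 CPM are a description without a test. Pearson's r was 0.911 for *Hes1*, 0.874 for *Hmga2*, 0.840 for *Vim*, 0.753 for *Nes*, 0.679 for *Sox2*, 0.604 for *Nr2e1*, 0.558 for *Hes5*, 0.461 for *Pax6*, 0.414 for *Sox1* and 0.312 for *Fabp7*. Spearman's rho was 0.923, 0.853, 0.846, 0.797, 0.734, 0.615, 0.783, 0.406, 0.580 and 0.0979 in the same order. Without the 2 embryos farthest from the median in SP r was 0.810, 0.746, 0.791, 0.575, 0.932, 0.239, 0.816, 0.523, 0.665 and -0.26, again in this order, so that of *Nr2e1* and *Fabp7* rested on the embryos left out.

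Within the 6 embryos labelled male r was 0.941 for *Hes1*, 0.973 for *Hmga2*, 0.854 for *Vim* and 0.809 for *Nes*, with exact permutation p of 0.0097, 0.0042, 0.0097 and 0.0083, each 0.024 after adjustment over the 10 members. Spearman's rho was 0.943 for each of these 4 (exact permutation p = 0.017, adjusted 0.042). No share of all genes is given for this test. In these 4 genes male mutant 2, the male with *Hox*-poor DMH, was the highest of the 6 in both SP and DMH. Its part in these correlations was not tested. The other 6 members did not pass in males, with r of 0.44 for *Sox2* (exact permutation p = 0.40, adjusted 0.49). Within the 6 labelled female, without a test, r was 0.711 for *Hes1*, 0.532 for *Hmga2*, 0.642 for *Vim*, 0.602 for *Nes* and 0.983 for *Sox2*. For the remaining members it was 0.930 for *Sox1*, 0.793 for *Hes5*, 0.789 for *Nr2e1*, 0.664 for *Pax6* and 0.268 for *Fabp7*. The members with the highest r in females were thus not those of males, where *Sox1* was at 0.019. Both pieces of an embryo share its age, sex and genotype, and both libraries share its handling, which cannot be told apart here.

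**Figure D5:**
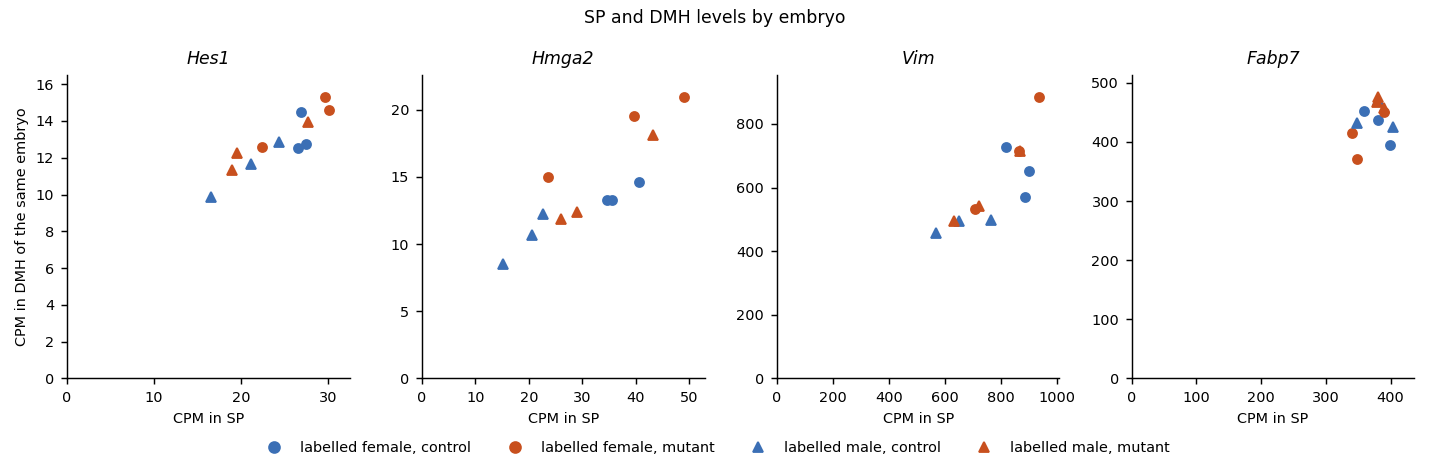
Level in DMH (vertical axes, CPM, from 0) against SP (horizontal axes, CPM, from 0) of the same embryo for 4 genes. Points are the 12 embryos. In *Hes1*, *Hmga2* and *Vim* (r = 0.911, 0.874 and 0.840 on log2 CPM) embryos high in SP were high in DMH, and in *Fabp7* (r = 0.312) the points form a single cluster.

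The genes most like the 3 listed members over the 24 libraries were found by the root mean square difference of centred log2 CPM among 18088 other genes. *Sp8*, a zinc finger factor of forebrain patterning, was nearest to *Sox1* with a difference of 0.14, followed by *Rtkn2* with 0.16, where *Sox1* itself had an SD of 0.82 over the libraries. *Gm19554* (0.31) and *Dlx2* (0.34), a homeobox gene of ventral forebrain progenitors, were nearest to *Nr2e1*, whose SD was 1.57. *Tead2* (0.21) and *Tcf7l1* (0.22), effectors of the Hippo and Wnt pathways, were nearest to *Hmga2*, whose SD was 0.72. The measure takes SP and DMH libraries together, and the likeness is given as a description.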

How the data were processed

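The authors sequenced stranded (dUTP) libraries of polyadenylated RNA in read pairs, from both brain regions of 12 embryos. Per the submitters' processing notes, reads were trimmed with cutadapt 2.4 and aligned with STAR 2.6.1d to mm10 (GRCm38.p6), and the notes also name edgeR. The authors deposited raw counts per gene for each library, with no normalization. The reverse-strand counts, which held 94.5 to 95.6% of stranded gene counts, were used, and 1 count column (the opposite strand) was not. Lines that name no gene (unmapped 5.46 to 9.98%, multimapping 4.96 to 7.85%, no feature 4.68 to 7.46% and ambiguous 1.10 to 1.62% of fragments) were left out. Of 54446 gene IDs 54409 matched a symbol of GENCODE vM21 (GRCm38).

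Counts were tested with edgeR 4.0.16 in R 4.3.3 (TMM, filterByExpr, robust quasi-likelihood test), 1 fit over all genes per comparison and Benjamini-Hochberg adjustment over them, and genes were called where the FDR was below 0.2 and the log2 fold change exceeded 0.5 in size, as in the study. Sex as labelled was a covariate where both sexes entered. The SE was the size of the log2 fold change over the square root of the test's F, and 95% intervals used the test's degrees of freedom. CPM was scaled by TMM over 24 libraries. A count of 3 equals 0.0449 to 0.121 CPM, so no level of a member was near that floor. The fits were tested on simulated counts with known changes before use.

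SP and DMH with the same sex, genotype and number come from the same embryo, and in 11 of 12 such pairs the deviations from the group means correlated above 0.1 (0.070 to 0.43). The lowest chi-square per gene between libraries of a group was 9.62 over 24 pairs, so none was a copy. Likeness used log2(CPM + 0.1). Correlations were tested in male embryos over all pairings (two-sided).

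The members and gene lists were chosen with earlier results of these data known. Besides the 10 members and *Tfap2b*, the genes named are up to 4 called genes per list with the smallest p and, for *Sox1*, *Nr2e1* and *Hmga2*, the 2 most similar genes. Lists of which no gene is named (blood, endothelium, microglia and eye among them) served as markers of other cells. Alternatives were RLE size factors, unstranded counts, no low-count filter, DESeq2 1.42.0, the replicate number or embryo as a block, an FDR under 0.05, female mutant 3 included, a covariate for caudal *Hox* level, and each embryo left out in turn. Figures were drawn with matplotlib 3.10.9. *Hes1* has no promoter window here, and protein sequences were not used here.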

Additional observations from a re-analysis of the deposited data

Results flagged for a closer look

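Dixon's test at the 95% level was applied to each of the 10 genes in SP and DMH by genotype, 40 groups of 6 libraries, and singled out 1 value, while chance alone would single out about 1 in 20 groups. It was *Sox1* in mutant SP, where female mutant 3 held 159 CPM and the 5 other libraries 185 to 201 CPM. The DMH library of the same embryo held *Sox1* at 44.1 CPM, the lowest of the 6 mutant DMH libraries. This embryo is the one whose DMH library also holds muscle and cartilage transcripts, whereas its SP library held 2.79 CPM of the muscle genes against 1.93 to 3.28 CPM in the other SP libraries.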

How the results depend on the processing

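In the 4 tested comparisons of genotypes and the interaction, 0 members were called under each alternative run, by edgeR or DESeq2, and 7 members were called lower in DMH under each alternative run except without female control 1 (8, in controls) and without male mutant 3 (6, in mutants). *Hmga2* in female SP had an edgeR adjusted p of 0.030 without the low-count filter and 0.057 with the replicate block, against 0.91 to 1.00 under the others, and stayed under the fold threshold in each. The number of all genes called changed with the processing. Without the low-count filter it was 17 in male DMH, 25 in female SP, 1 in male SP, 12 in SP of both sexes, 3 for the interaction and 9038 for the regions in controls. With DESeq2 it was 13, 6, 7, 23 and 4 in the first 5 of these. Replicate numbers did not pair controls with mutants (correlations of -0.15 to 0.54, above 0.1 in 7 of 12 pairs). The replicate block gave 7 genes in male DMH and 52 in female SP, and it turned *Hes5* to -0.16 in male SP. With the embryo as replicate block *Hes5* was at 0.064 for the regions in mutants, and no call changed. An FDR under 0.05 left 1 gene in female SP.

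The caudal *Hox* covariate gave 7 genes in male DMH and turned *Sox1* to -0.17 and *Nr2e1* to -0.22. With female mutant 3, 0 genes were called in female SP and 1 in SP of both sexes, *Sox1* was at -0.0072 and *Nr2e1* at -0.071 in female SP, and 0 members exceeded 0.5 in female DMH.

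Leaving out 1 embryo at a time gave 3 to 16 genes in male DMH, 1 to 6 in female SP, 0 to 8 in male SP, 0 to 2 in SP of both sexes and 1 to 2 for the interaction. In female DMH 1 to 4 members exceeded 0.5, with 4 without female control 1. Over all genes, edgeR called 1 in female DMH with all 3 controls. It called 1117 without female control 1, 2 without female control 2 and 7 without female control 3. In male DMH *Sox1* ranged from -0.15 to 0.44 and *Nr2e1* from -0.18 to 0.72. In male SP *Hes1* ranged from -0.096 to 0.24, *Hes5* from -0.33 to 0.51 and *Fabp7* from -0.036 to 0.079. *Hes5* ranged from -0.22 to 0.080 for the regions in mutants. For the interaction *Sox1* ranged from -0.53 to 0.098 and *Nr2e1* from -0.61 to 0.22. Where an arm of female SP or DMH was left with 1 mutant, that library was taken to vary like the controls. The count of 7 members by caudal *Hox* content, with alternatives chosen after seeing the data, was 6 with RLE size factors, 5 with unstranded counts, 7 without female mutant 3 and 7 to 8 without 1 library (8 without female control 1 or male control 3). The causes of these changes were not tested. The part of depth was not tested.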

Other observations

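The Notch pathway sum of SP was lowest in male mutant 1, at 840.1 CPM against 1058 to 1298 CPM in the 11 other SP libraries. This is the library in which *Hes5* was at 5.91 CPM. *Hes1*, the other Notch target among the members, was at 18.99 CPM there, within the 16.5 to 30.1 CPM of the other SP libraries, and *Nr2e1* was at 146 CPM, the highest of all 24 libraries.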
